A study of Equus caballus with 12 samples.

Results

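TSC1 (ENSECAG00000009564) and LAMTOR1 (ENSECAG00000022080), both regulators of the kinase complex mTORC1, were examined in pools of in vitro matured horse oocytes. They are 2 of the 11425 genes listed in the deposited count table and were taken from it by their Ensembl identifiers. Both were chosen by their normalized counts in these same VIM, VMAT and FR samples, so their levels and fold changes are a description and carry no test. Messenger RNA was sequenced from 12 pools, which averaged 23 oocytes. The 5 FR libraries came from fresh oocytes that were matured in vitro and never vitrified, and served as the control. The 3 VMAT libraries came from oocytes that were first matured in vitro to metaphase II and stripped of cumulus cells. They were then vitrified, warmed and cultured briefly. The 4 VIM libraries, titled VGV in the labels, came from germinal vesicle oocytes that kept their corona radiata during vitrification. These were warmed before maturation in vitro. VIM and VMAT thus also differ in cumulus cover at vitrification and in time since warming. The paper states that FR and VMAT oocytes were matured together and assigned to their group afterwards. VIM oocytes were matured apart from them, after warming. All oocytes came from slaughterhouse ovaries, met the same maturation medium with FSH and LH, were stripped of cumulus cells and had a polar body. The pools mixed oocytes of several ovaries and nothing in the sources ties a pool to single mares, so the spread between libraries is that between pools. In a pool, fewer oocytes with a transcript and less of it per oocyte cannot be told apart.

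mTORC1 is a protein kinase complex that promotes protein synthesis and cell growth and restrains autophagy, and it is switched on at the surface of the lysosome. TSC1 is the stabilizing partner of TSC2 in the TSC complex, which turns off the small GTPase RHEB and thereby inhibits mTORC1. LAMTOR1 is the lipid-anchored subunit that holds the Ragulator complex on the lysosome, where Ragulator carries the Rag GTPases that bring mTORC1 to that membrane. In mammalian oocytes the TSC complex is known for keeping primordial follicles dormant, and mTOR signalling for the control of translation of stored maternal mRNA during meiotic maturation.

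The libraries held between 1636620 and 12166950 reads on genes, and both extremes were VMAT libraries (replicates 1 and 2). VIM libraries held 2123138 to 3930366 reads and FR libraries 2740837 to 4715119. Values are normalized counts, which are read counts divided by the size factor of the library, and 3 reads, taken as the floor of counting, were worth 0.376 to 9.34 normalized counts. Of 14 oocyte markers, 8 could be matched by name, and none of these was at 0 in every library of a group. Their summed normalized counts were 10037 to 12488 in VIM, 10110 to 12363 in FR and 9592 to 22175 in VMAT. DPPA3 was the largest part of these sums, with means of 7569 (VIM), 9089 (VMAT) and 7392 (FR), so they say little about the other markers. ZAR1 was at 3.11, 33.4 and 8.25 in VMAT and at 115 to 252 in FR, without overlap. The other matched oocyte markers overlapped between VMAT and FR. FIGLA had medians of 4.07 (VIM), 147 (VMAT) and 217 (FR), with overlapping ranges. Only 1 of 16 cumulus and granulosa markers was matched, HAS2, a hyaluronan synthase made by expanding cumulus cells, with medians of 1136 (VIM), 451 (VMAT) and 842 (FR) and overlapping ranges. The single matched marker of blood and stroma, PECAM1 of endothelial cells, had medians of 712, 397 and 493. The part of such cells in the levels of TSC1 and LAMTOR1 was not tested.

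TSC1 was well above the counting floor in every vitrified library and near it in most fresh ones. In VIM replicates 1 to 4 its normalized counts were 347, 275, 619 and 601, a mean of 461 ± 175 (SD, n = 4). In VMAT replicates 1 to 3 they were 3339, 262 and 679, a mean of 1427 ± 1669 (SD, n = 3). In FR replicates 1 to 5 they were 205, 2.29, 2.24, 3.53 and 2.86, a mean of 43.2 ± 90.4 (SD, n = 5). Each of the 7 vitrified libraries thus lay above each of the 5 fresh ones, while VIM and VMAT overlapped. By median the order was VMAT (679), VIM (474) and FR (2.86), and the first pair in that order did not differ beyond its spread. FR replicate 1 stood apart from its group, and without it the FR mean was 2.73 ± 0.605 (SD, n = 4). VMAT replicate 1 was also the highest of its group, and without it the VMAT mean was 471 ± 295 (SD, n = 2).

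The reads behind the TSC1 values differed in number between the groups. VIM libraries held 565, 169, 514 and 615 TSC1 reads, and VMAT libraries 1073, 2092 and 576. FR replicate 1 held 190 TSC1 reads, and the other 4 FR libraries held 2, 4, 7 and 4. Only FR replicate 2 lay at or under the floor of 3 reads, and TSC1 was at 0 in none of the 12 libraries. In reads per 1000000 reads on genes (RPM), TSC1 stood at 144, 79.6, 203 and 207 in VIM and at 656, 172 and 235 in VMAT. The same measure in FR was 67.0 in replicate 1 and 0.730 to 1.48 in the others. The lowest vitrified library, VIM replicate 2, thus lay above FR replicate 1 in RPM (79.6 against 67.0). In reads not scaled for depth, VIM replicate 2 lay below FR replicate 1, at 169 against 190. These are the same counts on other scales and add no support to the separation.

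LAMTOR1 separated the vitrified groups from each other rather than from the fresh control. Its normalized counts were 122, 68.5, 235 and 474 in VIM replicates 1 to 4, a mean of 225 ± 180 (SD, n = 4). In VMAT replicates 1 to 3 they were 3.11, 8.64 and 3.54, a mean of 5.10 ± 3.08 (SD, n = 3). In FR replicates 1 to 5 they were 468, 206, 6.72, 3.03 and 1.43, a mean of 137 ± 205 (SD, n = 5). Every VIM library was above every VMAT library, and the FR libraries fell on both sides, with FR replicates 1 and 2 in the range of VIM and FR replicates 3, 4 and 5 near VMAT. By median the order was VIM (179), FR (6.72) and VMAT (3.54), and FR did not differ from either neighbour beyond its spread. Leaving out FR replicate 1 brought the FR mean of LAMTOR1 to 54.3 ± 101 (SD, n = 4).

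LAMTOR1 reads numbered 199, 42, 195 and 485 in VIM. VMAT libraries held 1, 69 and 3 LAMTOR1 reads. The 69 reads came from the deepest library, VMAT replicate 2, where they amounted to 5.67 RPM, against 0.611 and 1.23 in the other VMAT libraries and 19.8 to 164 in VIM. In that library the low level of LAMTOR1 therefore rested on a count well above the floor, whereas VMAT replicates 1 and 3 and FR replicate 5 lay at or under 3 reads. FR replicates 1 to 5 held 434, 180, 12, 6 and 2 LAMTOR1 reads, or 153, 65.7, 2.77, 1.27 and 0.559 RPM.

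**Figure D1:**
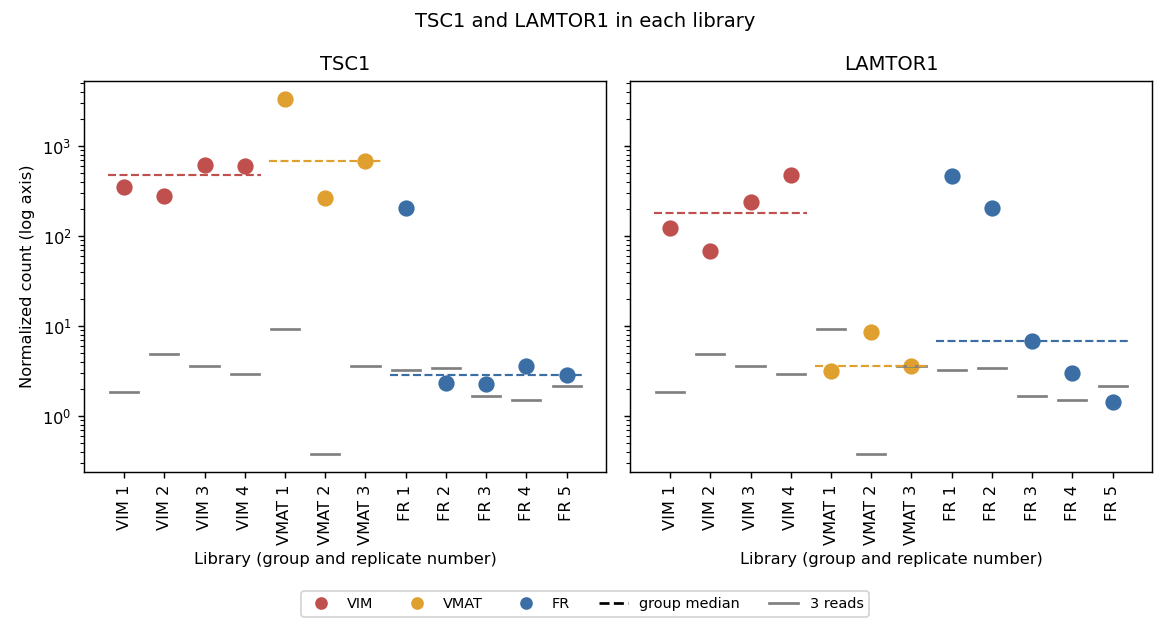
Normalized counts of TSC1 (left) and LAMTOR1 (right) on a log axis in each of the 12 libraries, named by group and replicate number, with dashed lines at group medians and grey ticks at the value of 3 reads in that library. TSC1 is at 262 or more in all 7 vitrified libraries and at 205 or less in all 5 fresh ones, whereas LAMTOR1 is at 68.5 or more in VIM and at 8.64 or less in VMAT, with FR on both sides.

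The values of each gene fell into separate high and low ranges. No TSC1 value lay between 3.53 and 205, a gap of 58.0-fold, and no LAMTOR1 value between 8.64 and 68.5, a gap of 7.92-fold. A normalized count of 30, a limit set after these values were seen, falls in both gaps. All 4 VIM libraries were above that limit for both genes, and all 3 VMAT libraries for TSC1 but not for LAMTOR1. The fresh pools were mixed. FR replicate 1 was above the limit for both genes, FR replicate 2 for LAMTOR1 alone, and FR replicates 3, 4 and 5 for neither. A library below the limit still held reads of the gene, such as 69 LAMTOR1 reads in VMAT replicate 2.

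Such a split was common across the table. Of the 4850 genes with a mean normalized count of at least 50 over the 12 libraries, 4065 (83.8%) were above 30 in some libraries and at or below it in others. The libraries in which each gene was high were then counted over the table. Among the 9028 genes above 0 in at least 3 libraries, only 2 (0.0222%) were above 30 in all 4 VIM and all 3 VMAT libraries and in at most 1 FR library, namely TSC1 and the unnamed gene ENSECAG00000014169. For LAMTOR1, 7 genes (0.0775%) were above 30 in all VIM libraries and in no VMAT library. Besides LAMTOR1 they included NVL, which encodes a ribosome biogenesis ATPase, and the centriole gene CEP120. These patterns were written down from the values of TSC1 and LAMTOR1, and the shares of other sets of libraries were not counted, so these shares are a description.

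The spread between libraries of one group was also ordinary for this table. The within-group SD of log2(normalized count + 1) was 1.97 for TSC1 and 2.44 for LAMTOR1, and the median over the 4850 genes was 2.85. Of these genes, 77.6% had a larger within-group SD than TSC1 and 65.9% a larger one than LAMTOR1. The range of TSC1 over all libraries, 10.0 on the log2 scale, was exceeded by 7.65% of the genes, and its widest gap by 6.66%. The range of LAMTOR1, 7.61, was exceeded by 65.0% and its widest gap by 50.4%.

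**Figure D2:**
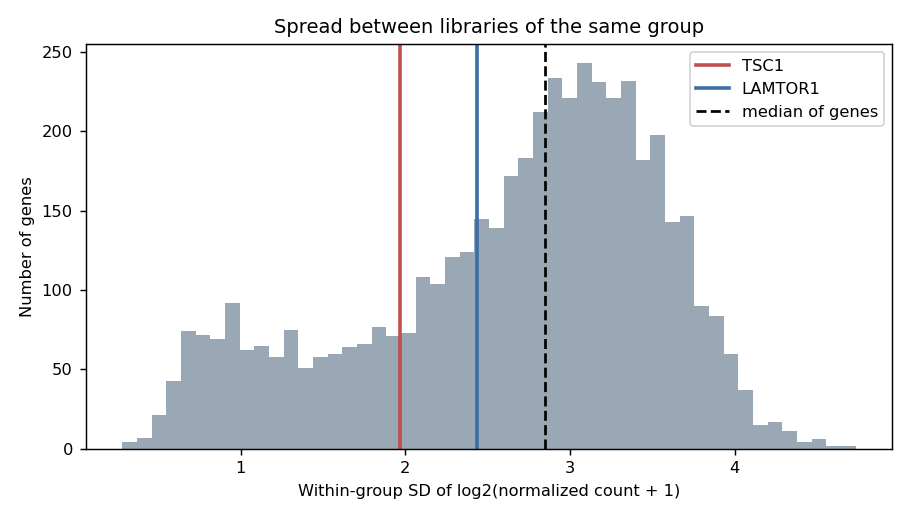
Histogram of the within-group SD of log2(normalized count + 1) over genes with a mean normalized count of at least 50, with vertical lines at TSC1, at LAMTOR1 and at the median of the genes (dashed). TSC1 (1.97) and LAMTOR1 (2.44) lie below the median of 2.85.

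The standard errors (SE) given with the limma fold changes do not measure the spread of the gene alone. In limma the variance of each gene is drawn toward the trend over all genes tested. On the log2(normalized count + 1) scale, which understates changes of low counts, TSC1 was higher by 5.72 (SE 1.87) in VIM than in FR and by 6.67 (SE 2.12) in VMAT than in FR. Both comparisons use the same FR libraries. Groups that did not overlap, with the first group higher, were seen for 0.952% of 7351 tested genes (VIM vs. FR) and for 1.96% of 8305 (VMAT vs. FR), TSC1 included in each. The opposite order was seen for 0.639% and 1.23%. Between the vitrified groups the TSC1 log2 fold change was -0.95 (SE 1.27), smaller than its error. It lost its sign without VMAT replicate 1, where it was 0.04. For TSC1, edgeR and DESeq2, which average on the scale of counts, gave 3.42 and 3.40 for VIM vs. FR and 4.61 and 5.05 for VMAT vs. FR. Without FR replicate 1, limma gave 6.88 and 7.83.

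LAMTOR1 was higher by 4.96 (SE 2.48) in VIM than in VMAT on the same log2 scale, and 1.72% of the 7627 genes tested in this comparison had every VIM value above every VMAT value. That SE was larger than the SD of the LAMTOR1 log2 values within VIM or within VMAT. This LAMTOR1 difference ran from 4.48 to 5.41 when each library was left out in turn, and was 3.65 with a pseudocount of 10 in place of 1. Against FR, LAMTOR1 gave 2.90 (SE 1.93) in VIM and -2.06 (SE 2.59) in VMAT, with overlapping groups in both comparisons and an error larger than the difference in the latter. The count-based averages differed here too, at 0.74 with edgeR and 0.68 with DESeq2 for VIM vs. FR and at -4.46 and -4.78 for VMAT vs. FR. No gene of the whole table was called differentially expressed (DE) by limma, where a call needs both an adjusted p not above 0.05 and a change of 1 or more on the log2 scale, which is 0.0% of the genes tested in each comparison. Unadjusted p was under 0.05 for 278 genes (3.78%) when VIM was set against FR, for 301 (3.62%) when VMAT was, and for 227 (2.98%) between the vitrified groups. With the same thresholds edgeR called 0, 1 and 1 genes and DESeq2 505, 354 and 295, in the same order.

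Other genes of the pathway were taken from lists ordered by role, which hold 132 genes besides TSC1 and LAMTOR1. Names could be paired with identifiers for 31 of these, only through the study's own supplementary results, and all 31 were tested in each comparison. The partners of TSC1 in its complex, TSC2 and TBC1D7, its target RHEB and the paralog RHEBL1, and MTOR, RPTOR and MLST8 of the kinase complex were not matched and are not analysed here. Neither were LAMTOR2 and the Rag GTPases RRAGB, RRAGC and RRAGD.

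The other matched Ragulator subunits did not share the library pattern of LAMTOR1. LAMTOR3, which forms a dimer with LAMTOR2 and was first known as a MAPK scaffold, had normalized counts of 317, 3.26, 3.62 and 127 in VIM, of 3.11, 64.7 and 0 in VMAT, and of 47.4, 145, 12.3, 42.4 and 155 in FR. LAMTOR4, which pairs with LAMTOR5, had 1366, 26.1, 3.62 and 710 in VIM, 15.6, 337 and 728 in VMAT, and 5.39, 6.86, 76.1, 380 and 4.30 in FR. LAMTOR5 itself had 348, 39.1, 1228 and 506 in VIM, 1341, 501 and 540 in VMAT, and 632, 16.01, 645, 911 and 1148 in FR. All 3 overlapped between every pair of groups, and LAMTOR5 was above 30 in 11 of 12 libraries, LAMTOR3 in 7 and LAMTOR4 in 6. VMAT pools with LAMTOR1 at 8.64 or less thus still held LAMTOR5 at 501 or more.

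None of these subunits passed the limma test, and neither did any other gene tested (0.0%). LAMTOR3 had log2 fold changes against FR of -0.95 (SE 1.97) for VIM and -3.16 (SE 2.35) for VMAT, and of 2.21 (SE 2.90) for VIM against VMAT. LAMTOR4 had 2.13 (SE 2.12), 2.74 (SE 2.15) and -0.61 (SE 1.97), and LAMTOR5 had -0.29 (SE 1.29), 0.93 (SE 1.27) and -1.23 (SE 1.38), in the same order. Their adjusted p in limma ran from 0.904 to 0.999. RRAGA, the Rag GTPase that Ragulator carries, averaged 127 ± 100 in the 4 VIM, 115 ± 102 in the 3 VMAT and 275 ± 188 in the 5 FR libraries (mean ± SD). It was above 30 in 10 of 12 libraries. Its log2 fold changes were -1.35 (SE 1.43), -1.93 (SE 1.69) and 0.58 (SE 2.23), with adjusted p of 0.904, 0.950 and 0.999 in limma.

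**Figure D3:**
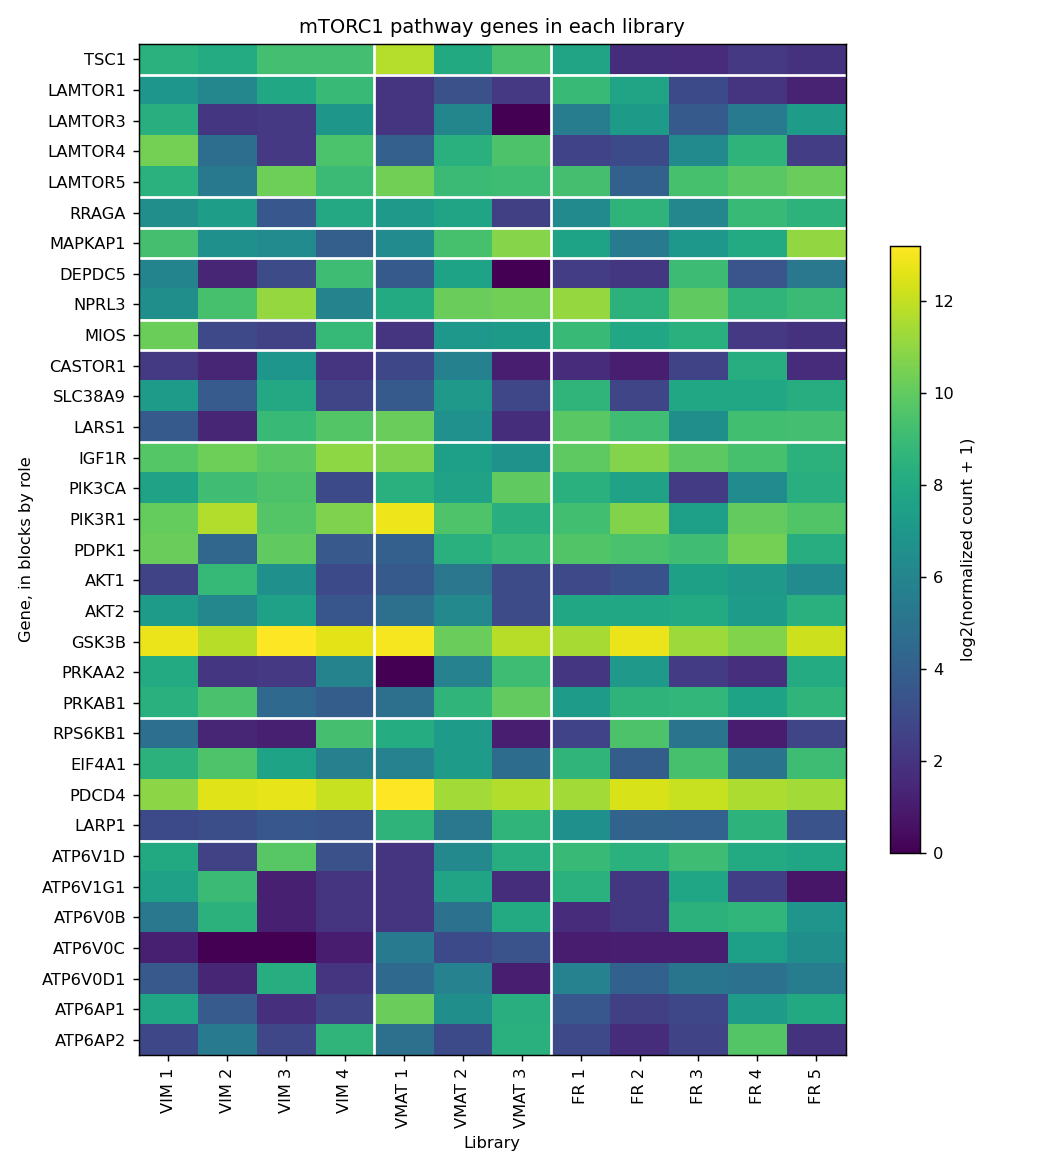
Heat map of log2(normalized count + 1) of TSC1, LAMTOR1 and the 31 other matched pathway genes (rows, in blocks by role) in the 12 libraries (columns, with white lines between VIM, VMAT and FR). TSC1 is dark in 4 of the 5 FR libraries, and LAMTOR1 in all 3 VMAT libraries and in FR replicates 3, 4 and 5. Of the other genes, 5 are above 30 normalized counts in every library and 26 are not.

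Over all 31 genes, limma called 0 DE in each of the comparisons, where the background was also 0.0% of genes tested. Unadjusted p was under 0.05 for 1 of 31 genes (VIM vs. FR), where the background was 3.78%, and for 0 in the other comparisons, against 3.62% and 2.98%. By direction, the background was 2.12% higher and 1.66% lower in VIM than in FR, 2.41% and 1.22% in VMAT than in FR, and 0.97% and 2.01% in VIM than in VMAT. DESeq2 called 1 lower gene (VIM vs. FR), 0 genes (VMAT vs. FR) and 1 lower gene (VIM vs. VMAT), against 6.87%, 4.26% and 3.87% of all genes tested, and edgeR called 0 in each. The log2 fold change was above 0 for 13 of 31 genes when VIM was compared with FR, for 14 when VMAT was, and for 14 between VIM and VMAT. Their medians were -0.29, -0.34 and -0.09, beside -0.12, 0.01 and -0.08 over all genes tested, in that order. Non-overlapping groups with the first group higher were seen for 0 of the 31 in each comparison, where the background was 0.952%, 1.96% and 1.72%, or under 1 gene in 31. As with both members, 26 of the 31 were above 30 in 3 to 11 libraries, and 5 were above it in all 12. These were GSK3B, NPRL3 of the GATOR1 complex, the translation inhibitor PDCD4, the receptor IGF1R and the PI3-kinase subunit PIK3R1.

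Outside the complexes above, the 3 genes with the smallest p in each comparison were named. GSK3B, a kinase that phosphorylates TSC2, was the 1 gene at unadjusted p under 0.05 in VIM vs. FR, with a log2 fold change of 0.92 (SE 0.438), and its adjusted p in limma was 0.902. Next to it were LARS1, the leucyl-tRNA synthetase that also senses leucine (-2.87, SE 1.57), and PDPK1, the kinase that activates AKT (-2.32, SE 1.31), with the same adjusted p. In VMAT vs. FR, AKT2, a kinase that phosphorylates TSC2, had normalized counts of 28.0, 73.1 and 7.07 in VMAT and 149 to 326 in FR, which did not overlap, as for 1.23% of genes tested with the first group lower. Its log2 fold change was -3.18 (SE 1.69, adjusted p = 0.950 in limma). ATP6V1D and ATP6AP1, a subunit and an accessory protein of the proton pump that binds Ragulator, followed with -2.97 (SE 1.58) and 3.51 (SE 1.95), and the same adjusted p.

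In VIM vs. VMAT, the comparison in which LAMTOR1 separated the groups, 2 pathway genes separated them the other way, beside 2.78% of all genes tested. They were ATP6V0C, a subunit of the same pump, with normalized counts of 1.23, 0, 0 and 0.978 in VIM (at most 2 reads, under the floor) and 40.5, 6.76 and 9.43 in VMAT, and LARP1, an mTORC1 target that binds mRNAs of ribosomal proteins, with 6.75, 8.15, 10.8 and 9.78 in VIM and 377, 37.6 and 401 in VMAT. Their log2 fold changes were -3.37 (SE 1.94) and -4.21 (SE 2.57), and ATP6AP1 had -4.30 (SE 2.30), each with an adjusted p of 0.967 in limma. DESeq2 called LARP1 at -4.94 (SE 1.52, adjusted p = 0.0254) in this comparison and ATP6V0C at -6.44 (SE 2.12, adjusted p = 0.0288) in VIM vs. FR. The FR values of LARP1 ran from 9.31 to 366 and overlapped with VMAT. Those of ATP6V0C were 1.08, 1.14, 1.12, 175 and 93.8, so that 3 of the 5 FR libraries lay under the floor, as VIM did, and FR replicates 4 and 5 lay above it.

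**Figure D4:**
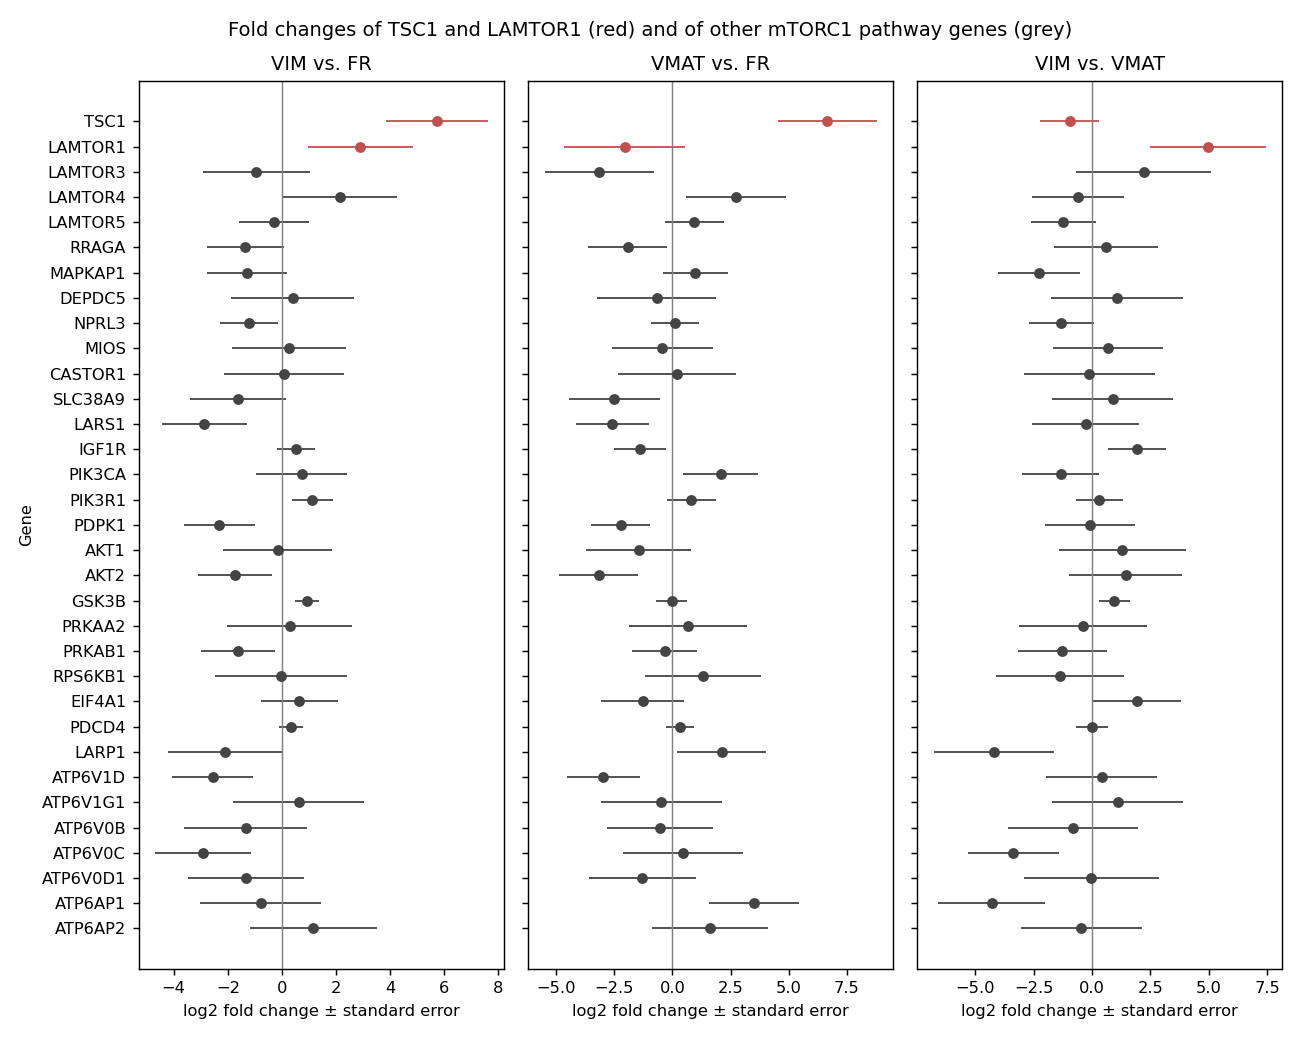
Log2 fold changes (points) with standard errors from limma (lines) of TSC1 and LAMTOR1 (red) and 31 other matched pathway genes (grey) in the 3 comparisons, 1 per panel. TSC1 lies at 5.72 and 6.67 against FR and LAMTOR1 at 4.96 in VIM vs. VMAT, and the others lie between negative and positive values with standard errors from 0.438 to 2.90.

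Genes that followed the members over the 12 libraries were ranked by Pearson's r of log2(normalized count + 1), among the 9028 genes above 0 in at least 3 libraries. For TSC1 the 5 highest were FBXL15, an F-box subunit of a ubiquitin ligase (r = 0.865), ENSECAG00000014169 (r = 0.859), ENSECAG00000004906 (r = 0.841), ENSECAG00000012746 (r = 0.840) and TSG101, a subunit of the ESCRT-I complex of endosomes (r = 0.812). TSG101 had 2.24 to 6.86 normalized counts in FR, 127 to 800 in VMAT and 9.64 to 279 in VIM, so that, like TSC1, it was lower in every fresh library than in any vitrified one. For LAMTOR1 the 5 highest were CFAP20, a protein of cilia (r = 0.865), BRWD3, a bromodomain protein (r = 0.864), TANK, an adaptor of TRAF signalling (r = 0.810), the actin regulator CAP1 (r = 0.800) and CAMSAP1, which binds microtubule minus ends (r = 0.780). TANK had 1312 to 1606 normalized counts in VMAT, below its 2549 to 3446 in VIM and its 1898 to 5209 in FR. These r are the top of a ranking over all 9028 genes and the points share group, library and depth, so they are given as a description.

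**Figure D5:**
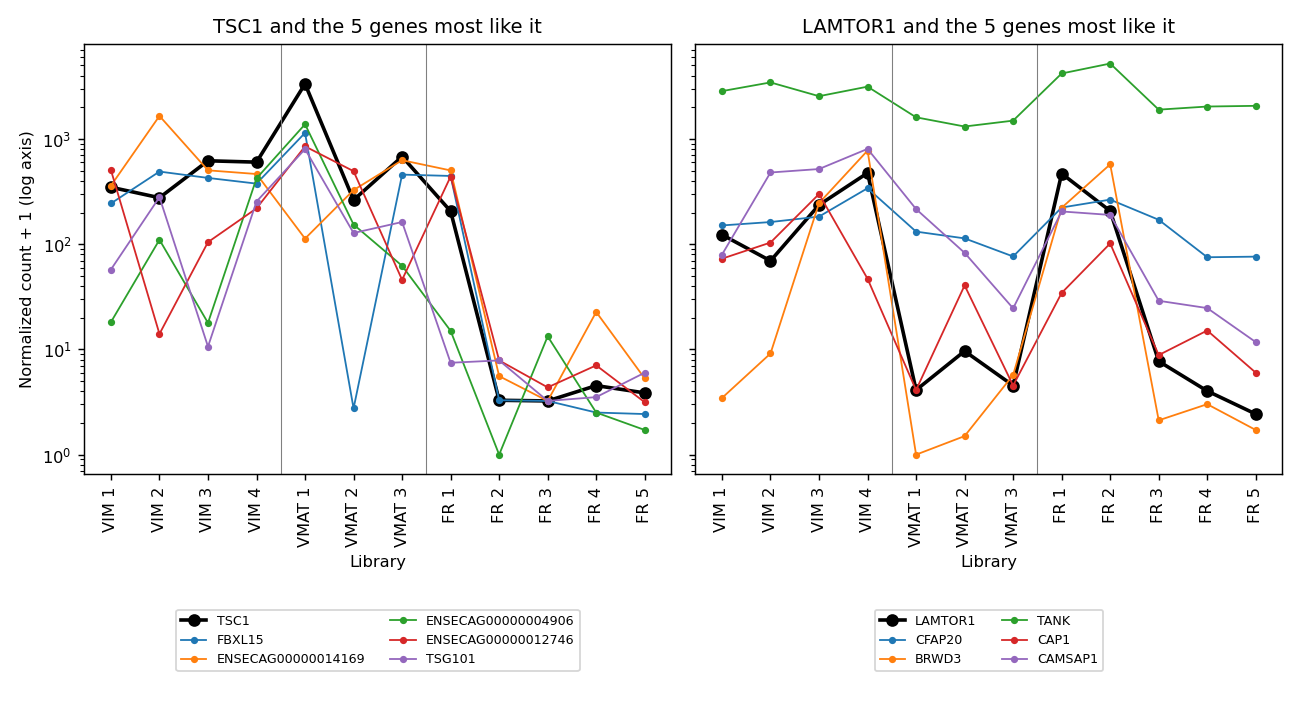
Normalized count + 1 on a log axis in the 12 libraries for TSC1 (left, black) and LAMTOR1 (right, black) and for the 5 genes with the highest r to each (colours), with grey lines between VIM, VMAT and FR. FBXL15 drops to 1.75 normalized counts in 1 VMAT library where TSC1 does not, and TANK varies with LAMTOR1 at a level of at least 1312 in every library.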

How the data were processed

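Messenger RNA from pools of horse oocytes (4 VIM, 3 VMAT and 5 FR) was sequenced from 3′ libraries with unique molecular identifiers. Per the methods and the submitters' processing notes, reads were trimmed (Trim Galore), mapped with STAR to EquCab3.0 (Ensembl release 108), passed through SAMtools and UMI-tools and counted per gene by RSEM. The labels give 5 replicates per group. The authors state that 4 VIM, 4 VMAT and 5 FR samples passed quality control of the RNA and that 1 VMAT sample was removed later. The deposited values are a normalized signal, made by the authors by dividing counts by a DESeq2 size factor per sample. Dividing each sample by its step returned whole reads for 100.0% of values (within 0.01), which were used for edgeR 4.0.16, DESeq2 1.42.0 and depth. Between 1636620 and 12166950 reads lay on genes. Floors of 3 reads cover counting error only.

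Groups came from the labels. Each of the 3 comparisons used its own samples and those genes above 0 in a minimum number of samples, the size of the smaller group (4 in VIM vs. FR, 3 in the others). limma 3.58.1 in R 4.3.3 (lmFit, eBayes with trend) was run on log2 values with a pseudocount of 1, with Benjamini-Hochberg adjustment over all genes tested. DE genes passed an adjusted p of 0.05 and a log2 fold change of 1 in either direction. The p-values rest on spread between these pools, since nothing in the sources says that they came from separate animals. In limma the variance of each gene is drawn toward the trend over all genes tested. A limma SE or p therefore does not measure the spread of the gene alone. Fits were tested on simulated counts whose spread was set by hand and not taken from these libraries. That test therefore does not bear on the DE counts given here. TSC1, LAMTOR1, the pathway lists and the markers were chosen with earlier results of these data known. The genes named were both members, every matched gene of the TSC complex, RHEB, Ragulator and Rag lists, MTOR, RPTOR and MLST8, the 3 genes with the smallest limma p per comparison from the other lists, and the 5 genes most like each member. Genes with a given library pattern, non-overlapping groups or a level above 30 in all libraries were named after their values were seen. Names came from the study's supplementary tables of differential expression and gene ontology results, which paired 2569 identifiers with a symbol. Those results were made from these same samples, so the matched pathway genes may not stand for the whole lists. Unmatched genes and gene positions were not analysed here.

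Alternatives were pseudocounts of 0.5 and 10, no filter, a minimum normalized count of 10, column totals made equal, quantile normalization, one fit of all 12 samples, eBayes without trend, a replicate block, edgeR (quasi-likelihood test), DESeq2 and leaving out each sample. Python 3.11.15 with pandas 2.3.3, numpy 2.4.6 and matplotlib 3.10.9 made the tables and figures.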

Additional observations from a re-analysis of the deposited data

Results flagged for a closer look

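In 28 groups of 4 or 5 libraries from the genes named, 4 held a library that stood apart by Dixon's test at the 95% level. The groups include those of TSC1 and LAMTOR1, and these and several other named genes were chosen from these same values. Many genes also split into high and low libraries, so the chance rate of 1 in 20 (1.4 of 28) does not apply. The flags are a description. TSC1 was at 205 normalized counts in FR replicate 1 and at 2.24 to 3.53 in the other FR libraries. LAMTOR4 was at 380 in FR replicate 4 and at 4.30 to 76.1 in the others. LARP1 was at 366 in the same library, FR replicate 4, and at 9.31 to 99.2 in the others. ATP6AP1 was at 227 in VIM replicate 1 and at 2.41 to 13.04 in the other VIM libraries. The cause was not tested.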

How the results depend on the processing

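The DE count was 0 in each comparison and under every left-out library. In VIM vs. FR it was 3 without a filter and 3 without trend in eBayes (in both TM9SF4 at -6.61, TOMM70 at 7.11 and ENSECAG00000023121 at 7.31 on the log2 scale) and 505 with DESeq2. In VMAT vs. FR it was 1 with edgeR (ENSECAG00000009451, 11.68) and 354 with DESeq2. In VIM vs. VMAT it was 1 with edgeR (REEP3, -8.33) and 295 with DESeq2. Pathway genes at unadjusted p under 0.05 numbered 1 in VIM vs. FR, but 0 with a pseudocount of 10, no filter, column totals made equal, quantile normalization, one fit of all 12 samples, no trend or the replicate block, 2 with DESeq2, and 0 to 3 with a library left out (3 without VIM replicate 3, 0 without FR replicate 1 or 4). In VMAT vs. FR they numbered 0, but 1 with a pseudocount of 10, no filter, quantile normalization, no trend, the replicate block or DESeq2, and 0 to 2 with a library left out. In VIM vs. VMAT they numbered 0, but 1 with a pseudocount of 10, 3 without a filter, 1 with quantile normalization, 3 without trend, 2 with DESeq2, and 0 to 2 with a library left out.

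TSC1 in VIM vs. FR was 3.42 with edgeR and 3.40 with DESeq2, and 5.38 to 6.88 with a library left out, and in VMAT vs. FR it was 4.61 to 6.84 over the settings and 5.68 to 7.83 with a library left out. In VIM vs. VMAT it ran from -1.79 to 0.042 with a library left out and was reversed without VMAT replicate 1. LAMTOR1 in VIM vs. VMAT was 3.65 with a pseudocount of 10 and 4.48 to 5.41 with a library left out. In VIM vs. FR it was 0.68 to 3.18 over the settings and 2.08 to 3.98 with a library left out, and in VMAT vs. FR -4.78 to -1.69 and -2.88 to -0.99 (0.99 below FR without FR replicate 1). LAMTOR1 did not pass the filter of at least 10 in VMAT vs. FR. Signs that turned were those of LAMTOR3 in VIM vs. FR (edgeR 0.54, DESeq2 0.45), LAMTOR5 in VIM vs. FR (replicate block 0.11, left-out libraries -1.41 to 0.69) and in VMAT vs. FR (edgeR -0.0028, left-out libraries -0.18 to 1.34), LAMTOR4 in VIM vs. VMAT (edgeR 0.47, DESeq2 0.58, left-out libraries -2.24 to 0.90) and RRAGA in VIM vs. VMAT (quantile normalization -0.46, edgeR -0.087, left-out libraries -1.04 to 1.55). The causes were not tested.

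Deviations of libraries with the same replicate number correlated at -0.0304 to 0.0131, so the numbers were not read as pairs. The replicate block gave 0 DE genes in each comparison and 243, 174 and 197 genes at unadjusted p under 0.05. Depth limits LAMTOR1 in VMAT replicates 1 and 3 and FR replicate 5 and TSC1 in FR replicate 2, all at or under 3 reads.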
